A study of Mus musculus with 12 samples.

Results

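Cytotoxic granule genes were examined in sorted CD8+ T cells (PD-1+CD44+) from NZB/W F1 mice, which develop lupus nephritis with age. The genes were the granzymes *Gzma*, *Gzmb*, *Gzmk* and *Gzmm*, the pore-forming perforin gene *Prf1*, the granule genes *Nkg7* and *Srgn*, and the death ligand gene *Fasl*. They were picked by name, as 8 of the 18992 genes with a count in at least 1 library, and all 8 were found in every library. They were followed over all 33 deposited clusters. Cells were sorted from spleen of 12-week-old mice (12W spleen), spleen of 28-week-old mice (28W spleen) and kidney of 28-week-old mice (28W kidney), the ages that the study calls pre-disease and advanced disease. Values given as triplets below follow this order of the libraries. All 3 groups came from the same strain and were sorted on the same markers, and the study obtained female mice. Whether the groups were sorted together was not stated. Kidney tissue was digested with collagenase I before sorting, a step not described for spleen. The question was how these genes differ with age, as 28W spleen over 12W spleen, and with organ, as 28W kidney over 28W spleen. Both comparisons contain the 28W spleen library.

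Killer lymphocytes store granzymes and perforin in secretory granules and release them toward a target cell. Perforin opens pores in the target membrane, and granzymes, which are serine proteases, enter and cleave proteins inside. Fas ligand is a separate route, in which a surface ligand engages the death receptor Fas on the target. In CD8+ T cells these genes are known as markers of effector differentiation.

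Each group's 4 listed samples were pooled in its tables with no map from cells to samples, so a group was 1 library without replicates, and no test of a difference was possible. The titles of the 4 are numbered in a way that may name sequencing lanes of 1 library rather than mice. The number of mice was not stated. One label of the older spleen samples gives their age as 12 weeks, and the 28 weeks of their titles were used. The libraries held 6481 to 7135 cells in 10 to 12 clusters and 29937384 to 34742303 UMIs, the molecular tags that count captured transcripts. Between 52 and 66 cell barcodes were shared by a pair of libraries, at most 1.02% of the smaller one. The sort markers were present, with *Cd8a* at 488 to 738 counts per 1000000 UMIs (CPM), *Cd8b1* at 873 to 1119, *Cd44* at 31.4 to 74.3 and *Pdcd1* at 34.7 to 115. Some marker lists of other cells were highest in 28W kidney. The summed B cell list stood at 416, 672 and 2287 CPM, the myeloid list at 52.7, 74.2 and 415 CPM and the kidney tubule list at 0.173, 0.219 and 165 CPM. Other lists went the other way. The erythroid list was highest in 12W spleen, at 2421, 504 and 323 CPM. The gamma delta T cell list (43.4, 26.5 and 25.5) and the endothelial list (48.9, 42.7 and 33.6) were also lowest in 28W kidney. In 8 of the 33 clusters a list of B cell, myeloid, NK cell, tubule or erythroid genes was raised, meaning at least 5 times its median cluster and at least 500 CPM. These clusters are named where a result touches them, and the folds of the 8 genes by age and organ and the median r of gene pairs were also taken without them.

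The 8 genes lie on 5 chromosomes (GRCm38, GENCODE M21). *Gzma* (chr13:113093825-113100981) and *Gzmk* (chr13:113171608-113225908) lie on the minus strand of chromosome 13. *Gzmb* (chr14:56258838-56262260) has 5 exons on the minus strand, and *Gzmm* (chr10:79689020-79695261) has 5 on the plus strand. *Prf1* (chr10:61297833-61304680) and *Srgn* (chr10:62493833-62527451) lie on opposite strands of chromosome 10, *Nkg7* (chr7:43437073-43438249) on the plus strand of chromosome 7 and *Fasl* (chr1:161780689-161788495) on the minus strand of chromosome 1. Near-identical copies were few: of the 31-base words in the transcripts, 1.35% of those of *Gzmb* occurred in another gene, all of them in *Gzmc*, 0.980% of those of *Srgn*, 0.392% of those of *Prf1* and 0 for the other 5 genes. *Gzmk* overlaps *Esm1* on the opposite strand, and *Esm1* had 21, 99 and 706 UMIs, or 2.41%, 2.25% and 4.11% of the *Gzmk* count.

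The promoters of *Gzma*, *Gzmb*, *Gzmk* and *Prf1* are shown because these genes had different patterns over the clusters. Each run gives the 250 bases before the RefSeq start (GRCm38.p6), 5′ to 3′ on the gene's strand, with matches to 5 short motifs in capitals. The *Gzmk* window precedes its RefSeq start and lies within the longer GENCODE gene.
Gzma promoter, chr13:113100982-113101231, minus strand: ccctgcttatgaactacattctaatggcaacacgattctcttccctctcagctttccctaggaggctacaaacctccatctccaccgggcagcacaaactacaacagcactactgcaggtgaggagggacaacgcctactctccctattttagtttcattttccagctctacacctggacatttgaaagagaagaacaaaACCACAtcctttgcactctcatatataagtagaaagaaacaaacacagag
Gzmb promoter, chr14:56262335-56262584, minus strand: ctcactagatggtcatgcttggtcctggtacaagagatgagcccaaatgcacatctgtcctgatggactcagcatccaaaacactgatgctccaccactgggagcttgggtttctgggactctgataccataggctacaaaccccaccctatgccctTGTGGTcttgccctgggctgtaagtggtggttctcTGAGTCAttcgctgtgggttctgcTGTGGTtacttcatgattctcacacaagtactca
Gzmk promoter, chr13:113180966-113181215, minus strand: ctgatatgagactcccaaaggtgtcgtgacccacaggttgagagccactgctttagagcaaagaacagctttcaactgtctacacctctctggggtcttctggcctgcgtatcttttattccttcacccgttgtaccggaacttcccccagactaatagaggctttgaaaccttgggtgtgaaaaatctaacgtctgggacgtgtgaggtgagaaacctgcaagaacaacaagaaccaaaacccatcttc
Prf1 promoter, chr10:61297586-61297835, plus strand: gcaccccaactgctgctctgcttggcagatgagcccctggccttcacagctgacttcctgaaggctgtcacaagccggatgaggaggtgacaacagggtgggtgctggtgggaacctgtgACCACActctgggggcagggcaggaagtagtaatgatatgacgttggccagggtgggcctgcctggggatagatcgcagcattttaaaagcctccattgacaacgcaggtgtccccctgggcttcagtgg
The motifs were TGTGGT for RUNX factors, AGGTGTNA for T-box factors such as T-bet, TGANTCA for AP-1, TGACGTNA for CRE-binding factors and TTCNNNGAA for STAT factors, read on both strands, and no matches overlapped. The RUNX letters stood in the first listed promoter of 5 of the 8 genes, against 14.0% of all 32851 promoters. They began 93 and 34 bases before the start of *Gzmb*, 50 bases before that of *Gzma*, 130 before that of *Prf1*, 83 before that of *Nkg7* and 247 before that of *Gzmm*. The AP-1 letters were in *Gzmb* alone among these windows of the 8, 58 bases before its start, against 6.75% of all promoters. *Nkg7* held the T-box letters 14 bases before its start, against 2.68% of all promoters. STAT letters were in *Nkg7* and *Gzmm*, against 7.02% of all promoters, and CRE letters were in none of the 8, against 2.52%. The first listed windows of *Gzmk*, *Fasl* and *Srgn* held none of the 5, and the second listed window of *Srgn* held the RUNX letters 202 bases before its start. A match describes letters and is not evidence of binding.

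All 4 granzymes had higher levels in 28W spleen than in 12W spleen, and higher again in 28W kidney. *Gzmk*, a trypsin-like granzyme, stood at 25.1, 138 and 574 CPM. Its 28W spleen level was 5.49-fold that of 12W spleen, with a 95% interval of 5.10 to 5.91, the highest age fold among the 8 genes, and its kidney level was 4.17-fold that of 28W spleen (4.04 to 4.32). All intervals are exact and cover counting error only, so they hold nothing of the spread between mice or sorts. *Gzmb*, which cleaves after aspartate and activates caspases, stood at 8.81, 28.3 and 282 CPM. Its organ fold of 9.97 (9.31 to 10.7) was the highest of the 8 genes, and its age fold was 3.22 (2.82 to 3.67). *Gzma*, a tryptase, started as the granzyme with the most UMIs, at 51.3 CPM, and reached 75.2 and 164 CPM, with folds of 1.46 (1.38 to 1.56) and 2.18 (2.08 to 2.29). *Gzmm*, which cleaves after methionine or leucine, was the scarcest, at 4.40, 11.9 and 28.3 CPM, with folds of 2.69 (2.23 to 3.27) and 2.38 (2.11 to 2.70). Per cell, *Gzmb* averaged 0.0444, 0.140 and 1.18 UMIs, and *Gzmk* 0.126, 0.680 and 2.41. These are means, in which fewer expressing cells and less RNA per cell cannot be told apart.

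Of the other 4 genes, *Fasl* was more than 2-fold higher by age and *Prf1*, *Nkg7* and *Srgn* were not. *Prf1* stood at 41.5, 51.1 and 83.3 CPM, and its folds of 1.23 (1.15 to 1.32) and 1.63 (1.53 to 1.74) were smaller than those of every granzyme. *Nkg7*, which encodes a granule membrane protein needed for efficient degranulation, was abundant throughout at 430.3, 767 and 1843 CPM, with folds of 1.78 (1.75 to 1.82) and 2.40 (2.37 to 2.44). *Srgn* encodes serglycin, the proteoglycan that packs granzymes and perforin in the granule. It varied least, at 490.0, 581 and 787 CPM, with folds of 1.19 (1.16 to 1.21) and 1.36 (1.33 to 1.38). *Fasl* stood at 6.82, 16.4 and 72.7 CPM, and its organ fold of 4.43 (4.03 to 4.89) came second to that of *Gzmb*, above an age fold of 2.40 (2.06 to 2.81). By age, the intervals of *Gzmb* and *Gzmm*, of *Gzmm* and *Fasl*, and of *Prf1* and *Srgn* overlapped, so the order within those pairs was not resolved. By organ, the pairs that overlapped were *Fasl* with *Gzmk*, *Nkg7* with *Gzmm*, and *Gzmm* with *Gzma*.

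**Figure D1:**
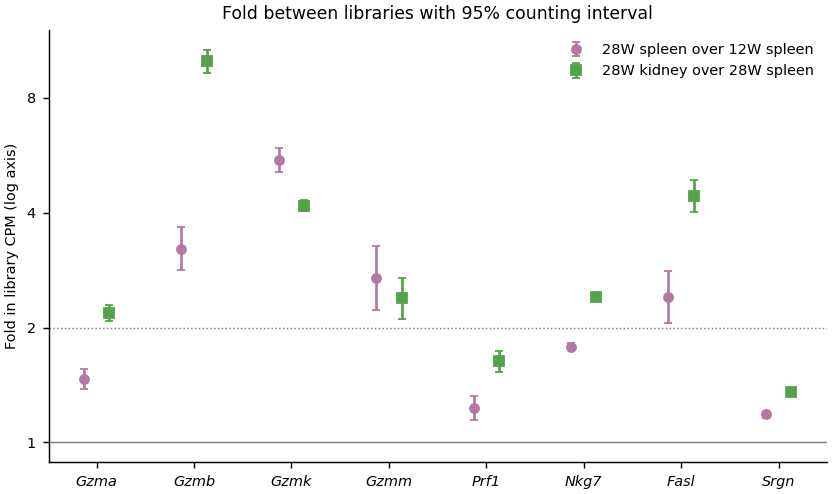
Fold in library CPM for the 8 genes (log axis), 28W spleen over 12W spleen as circles and 28W kidney over 28W spleen as squares, with 95% counting intervals, a solid line at 1 and a dotted line at 2. *Gzmk* has the highest fold by age (5.49) and *Gzmb* by organ (9.97), while *Srgn* and *Prf1* have the lowest of both.

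On the log2 scale with 1 CPM added, 4 of the 8 genes (*Gzmk*, *Gzmb*, *Gzmm* and *Fasl*) were at least 2-fold higher in 28W spleen than in 12W spleen, against 1.79% of the 7434 genes at or above 10 CPM in either library. Of these 4, *Gzmb*, *Gzmm* and *Fasl* were under 10 CPM in 12W spleen and reached this minimum only in 28W spleen, where they were higher. None of the 8 was at least 2-fold lower, against 0.901%. The median log2 ratio of the 8 was 0.99, beside -0.098 over all those genes. Adding 10 CPM in place of 1 left 2 of the 8 past 2-fold and a median of 0.63. By organ, 6 of the 8 (all but *Prf1* and *Srgn*) were at least 2-fold higher in 28W kidney, against 5.31% of 7686 genes, and none was at least 2-fold lower, against 1.34%. The median was 1.23, beside 0.073 over all genes. With clusters weighted equally, 3 of the 8 were past 2-fold by organ. Without the 8 clusters where another cell type's list was raised, the organ median was 1.39 and the log2 ratios of *Gzmb* and *Gzmk* were 3.21 and 2.19, beside 3.27 and 2.05 with them. *Gzma*, with an organ log2 ratio of 1.12, was not past 2-fold in that setting (0.90), nor without the clusters of the highest proliferation list (0.76), with deposited means weighted by cells (0.79), with clusters weighted equally (0.94) or with receptor, mitochondrial and ribosomal protein genes left out of the total (0.96). The study named *Gzmk* and *Nkg7* as genes of its cytotoxic subset from these libraries, so their part in the counts is not independent of the data. Markers of NK cells, which use the same granules, summed to 23.3, 33.1 and 88.2 CPM, with all 5 genes of the list detected in each. Most of the rise was *Tyrobp*, which myeloid cells also express, at 15.1, 26.5 and 79.1 CPM, and 2047 of its 2368 kidney UMIs lay in cluster 12, where the myeloid list was raised. *Ncr1* stood at 3.25, 3.15 and 5.75 CPM and *Klrb1c* at 4.32, 2.69 and 2.77, while *Klra8* and *Klri2* were under 1 CPM in every library. Dissociation response genes summed to 329.8, 869.8 and 1585 CPM. Their part in the folds was not tested.

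Within 12W spleen most granule genes were concentrated in 1 cluster. Cluster 2, with 1118 cells, had the highest level of *Gzma*, *Gzmk*, *Gzmm*, *Prf1*, *Nkg7*, *Fasl* and *Srgn*. It held 71.0% (67.8 to 74.0) of all *Gzmk* UMIs and 62.4% (55.9 to 68.6) of all *Fasl* UMIs, with 16.2% of the cells and 11.2% of the UMIs. There *Gzmk* stood at 159 CPM (147 to 173), and in the other 9 clusters between 1.80 and 23.9. *Fasl* stood at 38.2 CPM in cluster 2 and between 1.32 and 14.0 elsewhere, the 14.0 from 4 UMIs in cluster 8. *Prf1* was spread more evenly, between 18.9 and 87.7 CPM, and *Srgn* between 267 and 731. The *Prf1* and *Fasl* intervals of cluster 2 overlapped those of cluster 8, so these highest places were not resolved. *Gzmm* had 0 UMIs in cluster 8, and the floor of 3 UMIs is 10.5 CPM there. The NK cell gene *Ncr1* had 98 UMIs in cluster 2, or 25.3 CPM, and its part in the levels of this cluster was not tested.

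*Gzmb* went apart from the other granzymes at 12 weeks. Its highest cluster was cluster 7, with 31.5 CPM (26.8 to 36.8), followed by cluster 2 with 24.5 (19.8 to 30.0). Cluster 8 had 14.0 (3.83 to 36.0, from 4 UMIs) and cluster 10 had 8.63, and *Gzmb* lay between 0.795 and 1.48 CPM in the other 6. The intervals of clusters 7, 2 and 8 overlapped, so their order was not resolved. Cluster 7 held 51.3% (45.6 to 57.0) of all *Gzmb* UMIs, with 5.40% of the cells and 14.4% of the UMIs. In the same cluster *Gzma*, *Gzmk* and *Nkg7* were at their lowest of the 10 clusters per UMI, at 9.83, 1.80 and 252 CPM. Each of these intervals overlapped that of another cluster, so the lowest places were not resolved. The cells of cluster 7 averaged 13405.5 UMIs. Per cell, *Nkg7* averaged 3.37 UMIs there, above the 2.17 of the whole library. *Gzma* averaged 0.132 and *Gzmk* 0.0242 UMIs per cell, below the 0.259 and 0.126 of the library. The leading genes of cluster 7 over the other clusters, looked up after these values were seen, began with *Xcl1* and *Ccl4*, which encode chemokines, and *Tnfrsf9*, an activation receptor. The summed T cell list of cluster 7, at 2397 CPM, was the lowest of that library per UMI.

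In 28W spleen the same genes were high in several clusters. *Gzmk* stood at 444 CPM (369 to 530) in cluster 11, 401 in cluster 9 and 359.5 in cluster 2, and at 34.6 in cluster 7, the lowest. Cluster 2 had the highest *Gzmb* (96.3 CPM), *Gzma* (137) and *Fasl* (49.5), and it held 50.4% (47.1 to 53.7) of all *Gzmb* UMIs in 15.8% of the cells. *Nkg7* was highest in cluster 9 at 1646 CPM, with cluster 2 at 1625, and *Gzmm* was highest in cluster 9 at 38.9, from 17 UMIs. Of the 101 UMIs of the NK cell gene *Ncr1* in this library, 89 lay in cluster 2 (18.8 CPM) and 9 in cluster 9 (20.6 CPM). Its part in the levels of these clusters was not tested. *Prf1* was highest in cluster 11 at 123 CPM (85.0 to 172), a small cluster with 6.64% mitochondrial UMIs. None of these highest places was resolved, as each interval overlapped that of another of clusters 2, 9 and 11. The lowest *Gzmk*, in cluster 7 (28.0 to 42.3), was not resolved from cluster 10 (22.2 to 51.6). Cluster 10, whose leading genes were B cell and antigen presentation genes, had 0 UMIs of *Gzmb*, where 3 UMIs would be 4.34 CPM, and the lowest *Gzma* (11.6), *Prf1* (14.5) and *Nkg7* (142). The same cluster had the highest *Srgn*, at 895 CPM. Its *Prf1* interval (6.93 to 26.6) overlapped that of cluster 6 (20.8 to 28.6).

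Every cluster of 28W kidney had *Gzmb* UMIs, from 6.94 CPM in cluster 5 to 696 (673 to 719) in cluster 1. Cluster 1, which held 42.1% (41.0 to 43.1) of all *Gzmb* UMIs in 12.6% of the cells, had *Gzmb* as its first leading gene and the highest *Nkg7*, at 2841 CPM. That *Nkg7* interval (2795 to 2887) overlapped that of cluster 6 (2649 to 2796). In 6 of the 12 kidney clusters *Gzmb* was above its highest cluster of 28W spleen. For *Fasl* this held in 7 clusters, for *Gzma*, *Gzmk* and *Nkg7* in 5 each, for *Prf1* in 3, for *Srgn* in 2 and for *Gzmm* in 1. How often this holds over all genes was not counted, so these counts are a description. They include clusters where another cell type's list was raised. These were 7 and 11 for *Gzmb*, 11 and 12 for *Gzma*, 2 and 11 for *Fasl*, and 11 for *Gzmk* and *Nkg7*. Both clusters of *Srgn*, 8 and 12, were among them. In 3 kidney clusters *Srgn* was below its lowest cluster of 28W spleen. *Gzmk* was highest in cluster 6, at 902 CPM (860.0 to 945), where *Fasl* was also highest, at 143 CPM (126 to 161). Neither place was resolved. The *Gzmk* interval overlapped those of cluster 1 (873, 848 to 899) and cluster 11 (869, 841 to 898). The *Fasl* interval overlapped that of cluster 3 (132, 121 to 144). The leading genes of cluster 6, looked up after its values were seen, were interferon-stimulated genes such as *Ifit3* and *Isg15*. Another cluster led by *Ifit3*, cluster 4 of 28W spleen, had 163 CPM of *Gzmk* and 14.9 of *Fasl*, near its library's 138 and 16.4. Cluster 4 of the kidney, led by genes that include *Il17a*, *Trdc* and *Tcrg-C1*, had the highest *Gzmm* (45.7 CPM) with *Gzmb* at 50.4. Its *Gzmm* interval (38.9 to 53.4) overlapped those of clusters 1, 7, 9, 10 and 11, so this place was not resolved. The lowest *Gzmk* was in clusters 8, 2 and 12, at 70.7, 79.6 and 105 CPM, and these had summed T cell lists of 2065, 1651 and 1083 CPM against 3439 to 6448 in the other 9. B cell lists were raised in all 3. *Srgn* ran from 137 CPM in cluster 2, the cluster with the highest mitochondrial share (10.8%), to 1530 in cluster 8, led by *Cd79a*, a B cell receptor gene, and 1004 in cluster 12, where the myeloid list was raised.

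**Figure D2:**
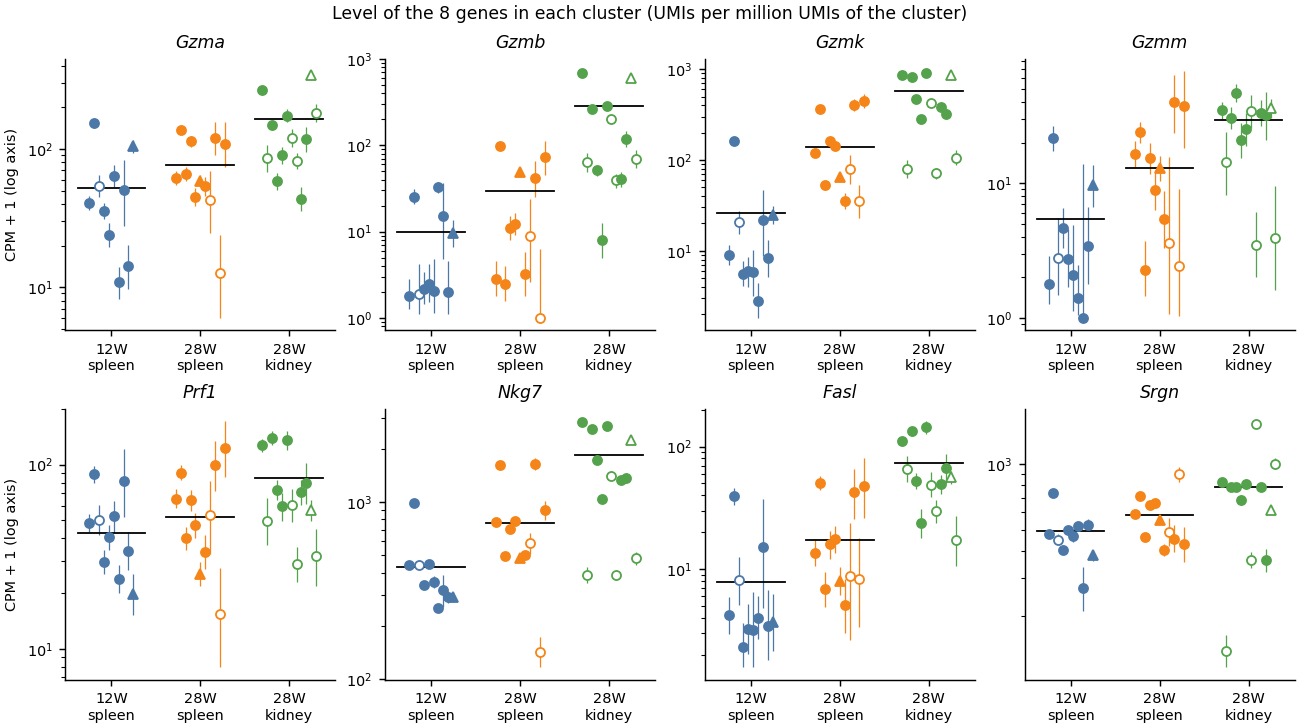
Level of each gene in the 33 clusters as CPM plus 1 (log axis), grouped by library. Each point is a cluster with its 95% counting interval, triangles are the cluster with the highest proliferation list, open symbols are clusters where another cell type's list was raised, and black lines are library levels. *Gzmb* spans 6.94 to 696 CPM within 28W kidney, while *Srgn* spans the narrowest range in both spleens.

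How uneven a gene was over clusters was read against all genes at or above 10 CPM. The highest cluster was at least 2 times the median cluster for 7 of the 8 genes in 12W spleen, of which 4 were among the 5 that reached 10 CPM there, against 54.6% of all genes. This held for 7 of the 8 in 28W spleen, against 46.2%, and for 6 of the 8 in 28W kidney, against 36.8%. *Srgn* was below it in all 3 libraries, at 1.55, 1.63 and 1.96 times the median cluster, and *Gzmm* was below it in 28W kidney, at 1.51 times. *Gzmb* was at 23.9, 9.53 and 7.45 times the median cluster. Clusters were formed from these same cells, so the differences between them are a description.

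The cluster with the highest summed level of the 8 genes was cluster 2 of each spleen library and cluster 1 of the kidney library. Chosen on these levels, they show how the genes stood in the clusters richest in them. *Prf1* was at 87.7, 89.6 and 126 CPM in these clusters, and *Srgn* at 731, 716 and 829. Between the spleen clusters, the folds were 1.02 (0.883 to 1.18) for *Prf1*, 0.898 (0.802 to 1.01) for *Gzma*, 1.10 (0.818 to 1.49) for *Gzmm* and 0.979 (0.931 to 1.03) for *Srgn*, with intervals that include 1. *Gzmb* was 3.93-fold (3.14 to 4.95), *Gzmk* 2.25-fold (2.06 to 2.48), *Nkg7* 1.65-fold (1.58 to 1.71) and *Fasl* 1.30-fold (1.05 to 1.60) higher in the 28W spleen cluster. From the 28W spleen cluster to the kidney cluster, *Gzmb* was 7.23-fold higher (6.55 to 7.98), *Gzmk* 2.43-fold, *Fasl* 2.20-fold, *Gzma* 1.95-fold and *Prf1* 1.41-fold (1.24 to 1.59). Cluster 1 of 28W kidney also had a summed proliferation list of 314 CPM, against 46.2 and 52.9 in the spleen clusters.

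In each library 1 cluster carried the highest proliferation list (cluster 10 of 12W spleen, cluster 6 of 28W spleen and cluster 11 of 28W kidney), at 3573, 1576 and 4532 CPM, with cell cycle genes such as *Pclaf* and *Birc5* leading. *Prf1* was low in these clusters: it stood at 18.9 CPM (14.3 to 24.5) in 12W spleen, the lowest of 10 clusters, at 24.5 (20.8 to 28.6) in 28W spleen, 10th of 11, and at 55.7 (48.7 to 63.4) in 28W kidney, 9th of 12. None of these places was resolved, as each interval overlapped that of another cluster. The levels in the proliferation clusters were 0.434, 0.424 and 0.635 times those of the other clusters together. *Fasl* was also lower there, at 0.368, 0.372 and 0.728 times. *Gzmb* did not share this pattern. It was at 0.978 times in 12W spleen, 2.08 times in 28W spleen, where it reached 48.4 CPM, and 2.60 times in 28W kidney, where it reached 603 CPM. *Gzma* was at 2.24 times in 12W spleen and 2.54 times in 28W kidney, its highest cluster of that library at 345 CPM, but at 0.727 times in 28W spleen.

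Counted per cell, the order for *Prf1* was the opposite. *Prf1* averaged 0.271 UMIs per cell in the proliferation cluster and 0.207 in the other clusters of 12W spleen, 0.299 and 0.248 in 28W spleen, and 0.635 and 0.334 in 28W kidney. *Gzmb* averaged 6.87 UMIs per cell in the kidney proliferation cluster and 0.883 in the other kidney clusters. Over the 10 clusters of 12W spleen, *Prf1* CPM had a Pearson r of -0.86 with UMIs per cell on log2 scales, and -0.50 and -0.040 over the 11 and 12 clusters of 28W spleen and 28W kidney. Cluster 11 of the kidney also had erythroid genes at 1809 CPM and B cell genes at 582 CPM, whose part in its levels was not tested.

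**Figure D3:**
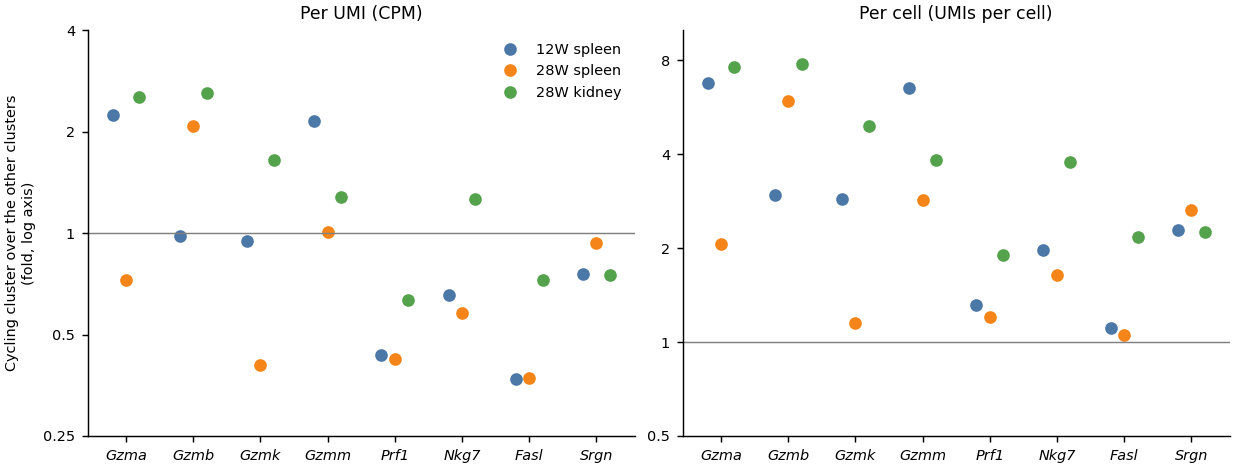
Fold of the cluster with the highest proliferation list over all other clusters of its library for each gene (log axes), per UMI on the left and per cell on the right, coloured by library. On the left *Prf1* and *Fasl* lie below 1 in all 3 libraries and *Gzmb* at 0.978 to 2.60, and on the right no point lies below 1.

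The mix of granzymes differed between libraries. UMIs count captured 5′ ends, so they were not divided by transcript length, and differences in capture between transcripts were not corrected. Of the 3114 UMIs of the 4 granzymes in 12W spleen, *Gzma* made up 57.3% (55.5 to 59.0), *Gzmk* 28.0%, *Gzmb* 9.83% and *Gzmm* 4.91%. Of 8102 in 28W spleen, *Gzmk* made up 54.4% (53.3 to 55.5), *Gzma* 29.7%, *Gzmb* 11.2% and *Gzmm* 4.69%. Of 31411 in 28W kidney, *Gzmk* made up 54.7% (54.2 to 55.3), *Gzmb* 26.9% (26.4 to 27.4), *Gzma* 15.7% and *Gzmm* 2.70%. The share of *Gzmk* in the last 2 libraries overlapped within counting error, while *Gzmb* and *Gzma* traded places. *Gzma* was the most counted granzyme in 8 of the 10 clusters of 12W spleen, with *Gzmk* ahead in cluster 2 (44.7% against 42.7%) and *Gzmb* in cluster 7 (72.4%). The intervals of *Gzma* and *Gzmk* overlapped in cluster 2 and in clusters 8 and 9, which had 24 and 49 granzyme UMIs. The lead in these clusters was not resolved. In 28W kidney *Gzmk* led in 9 of 12 clusters and *Gzma* in 3, namely clusters 2, 8 and 12. The lead of *Gzma* was not resolved in cluster 2 (29.1 to 41.7% against 27.0 to 39.5% for *Gzmk*). The same held in cluster 8 (37.8 to 46.3% against 32.7 to 41.0%). *Gzma* reached 50.7% in cluster 12, where the NK cell gene *Ncr1* stood at 67.4 CPM and the B cell and myeloid lists were raised.

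**Figure D4:**
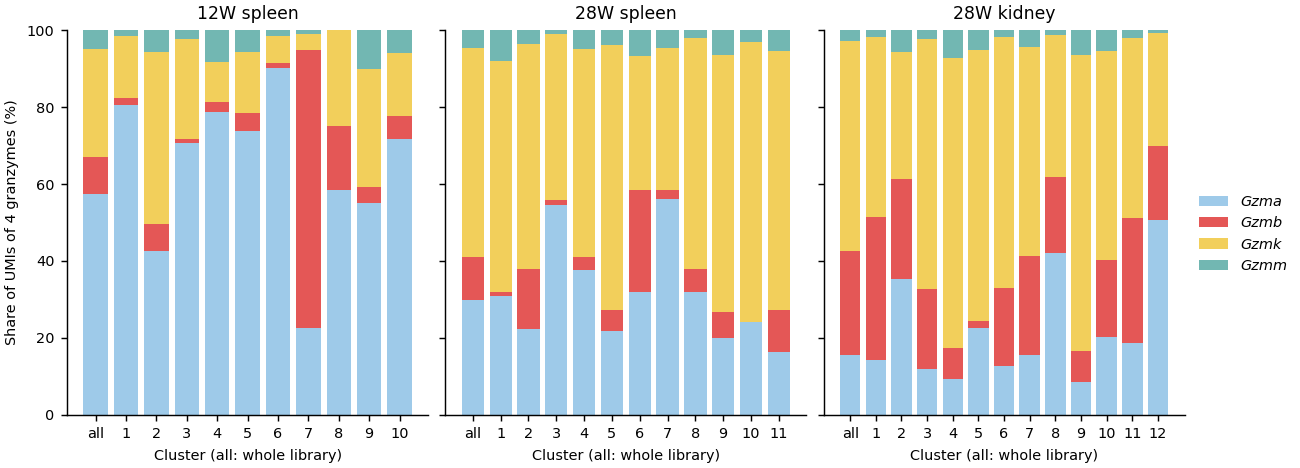
Share of each granzyme in the summed UMIs of the 4 granzymes (percent, bars from 0 to 100) for each whole library and each cluster. *Gzma* makes up 57.3%, 29.7% and 15.7% of the whole libraries, and *Gzmb* fills 72.4% of cluster 7 in 12W spleen.

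Levels of the genes were set side by side over the clusters as log2 of CPM plus 10. These correlations describe 33 clusters, which share their library and its depth, and carry no p. *Gzmk* and *Nkg7* had a Pearson r of 0.91 over the 33 clusters and 0.99 over the 12 of 28W kidney. In that library the r of each with the summed T cell list was 0.89 and 0.91, and the part of the T cell content of clusters in the pair's r was not tested. *Gzmk* with *Fasl* had 0.90, *Gzmk* with *Gzmm* 0.90 and *Gzmb* with *Fasl* 0.86. *Gzma* and *Gzmb* had 0.15, 0.67 and 0.80 within the single libraries. *Gzmb* and *Prf1* had 0.12, 0.60 and 0.54. *Srgn* stood apart, with r between 0.036 and 0.31 with the other 7 over the 33 clusters.

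**Figure D5:**
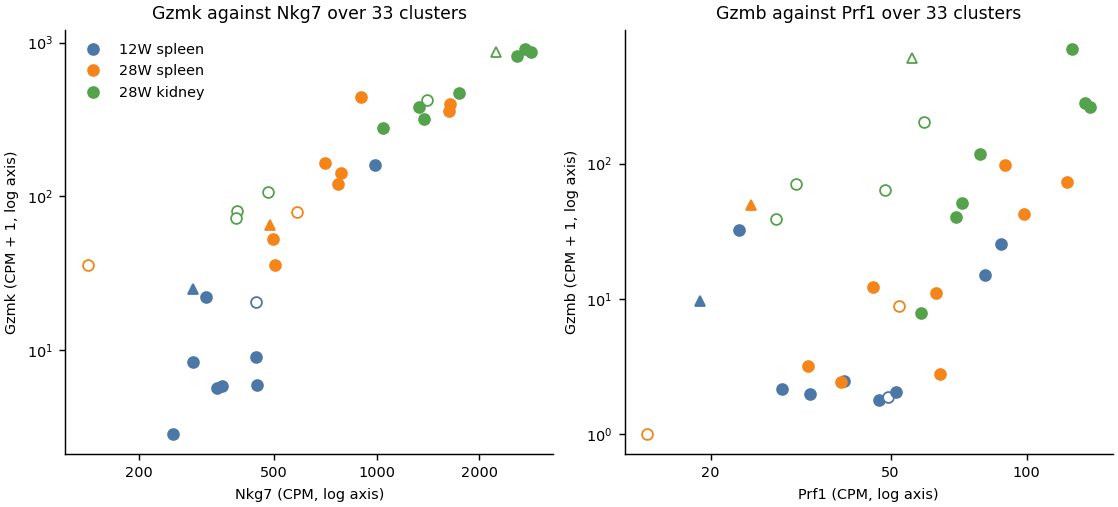
*Gzmk* against *Nkg7* (left) and *Gzmb* against *Prf1* (right) in the 33 clusters (CPM, log axes, 1 added on the vertical axis), coloured by library. Triangles are the clusters with the highest proliferation list and open symbols those where another cell type's list was raised; *Gzmk* follows *Nkg7* (r 0.91), while the triangles lie at 18.9 to 55.7 CPM of *Prf1*.

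Among 2966 genes at or above 50 CPM in a library, the nearest in pattern to *Gzmk* were the NK receptor genes *Klrc1* (r 0.94) and *Klrk1* (0.93) and *S100a6* (0.93). *Klrc1* was also nearest to *Fasl* (0.96), *Nkg7* (0.90) and *Gzmm* (0.86), followed by *Klrk1* (0.91) and *Cxcr3* (0.90) for *Fasl*, *AW112010* (0.88) and *Ly6a* (0.88) for *Nkg7* and *Cxcr3* (0.84) and *Klrk1* (0.83) for *Gzmm*. Among those near to *Gzmb* were *Ccr2* (0.89), a chemokine receptor gene, and *Tigit* (0.85), an inhibitory receptor gene. *Prf1* had other neighbours: *Tapbpl* (0.89), which encodes an MHC class I peptide editor, *Ctsd* (0.87), a lysosomal protease gene, and *Cers4* (0.86), a ceramide synthase gene. *Gzma* had no close neighbour, with *Rcbtb2* and *Ap1s2* at 0.72 and *Klrk1* at 0.71, and *Srgn* was nearest to *Dazap2* (0.78), *Capza2* (0.77) and *Gdi2* (0.76). Of 13 listed transcription regulators, *Tbx21*, which encodes T-bet, had the highest r with *Fasl* (0.89), *Gzmk* (0.87), *Nkg7* (0.83) and *Gzmm* (0.80). *Runx3* had the highest with *Prf1* (0.84), *Prdm1*, which encodes Blimp-1, with *Gzmb* (0.74), *Id2* with *Gzma* (0.62) and *Nfil3* with *Srgn* (0.49). The lowest r was with *Id3* or *Tcf7*, genes of less differentiated T cells, for every one of the 8, from -0.38 for *Srgn* to -0.75 for *Fasl*. These r pool libraries whose levels differ. Within 28W spleen the 8 lowest pairs ran from -0.73 for *Srgn* with *Tcf7* to 0.24 for *Gzma* with *Id3*. Of these, 4 were above 0 there, while all 8 were below 0 within 12W spleen and within 28W kidney. Of the highest pairs, *Gzmb* with *Prdm1* had 0.42, 0.63 and 0.35 within the single libraries, and *Gzma* with *Id2* 0.26, 0.39 and 0.60. These were all below the pooled values. *Prdm1* was under 10 CPM in both spleens. *Prf1* with *Runx3* had 0.86, 0.92 and 0.67, and *Srgn* with *Nfil3* 0.77, 0.64 and 0.34. The 4 pairs with *Tbx21* ran from 0.60 to 0.87.

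Other genes of granule biology were taken from 7 lists of 48 genes. By age, 3 of the 35 at or above 10 CPM were at least 2-fold higher in 28W spleen, against 1.79% of all genes, and 1 was at least 2-fold lower, against 0.901%. By organ, 10 of 40 were at least 2-fold higher in 28W kidney, against 5.31%, and 2 were at least 2-fold lower, against 1.34%. Of the higher genes, 2 of the 3 by age and 6 of the 10 by organ were under 10 CPM in the library with the lower level, so they were counted only through the library where they were high. Highest and lowest genes of a list are given among those at or above 10 CPM in either library. The granzyme genes *Gzmc* to *Gzmg* and *Gzmn* were nearly absent, and *Gzmc*, with 12, 6 and 28 UMIs, had the most. Of 8 granule maturation genes at that level by age, none was 2-fold higher, *Cst7* came highest at 1.35-fold and the lysosomal protease gene *Ctsl* was 2.67-fold lower, at 15.4 and 5.78 CPM. By organ 3 of 9 were at least 2-fold higher, and *Cd63*, a granule membrane gene, had the highest fold at 21.7 (16.4 to 29.1), from 1.66 to 35.9 CPM, after an age fold of 1.64 (1.05 to 2.59) from 1.01 CPM, while *Igf2r* was lowest at 0.910 times. Among 9 exocytosis genes, the syntaxin gene *Stx11* was 2.36-fold higher by age and the synaptotagmin-like gene *Sytl2* was 2.94-fold higher by organ, while *Lyst* by age and *Ap3b1* by organ were lowest, at 0.793 and 0.980 times.

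Of the 7 death ligand and receptor genes, *Tnf* was highest by age (2.08-fold) and *Tnfsf10*, which encodes TRAIL, by organ (2.89-fold), and *Lta* was lowest by age at 0.673 times. *Fas*, the receptor of Fas ligand, stood at 64.0, 58.1 and 39.2 CPM, and its organ ratio of 0.675 (0.627 to 0.727) was the lowest of the list. Among the granzyme inhibitors, *Serpinb9*, which blocks granzyme B, was 2.07-fold higher by organ (1.89 to 2.28), against 9.97-fold for *Gzmb*, and stood at 15.7, 21.4 and 44.4 CPM. Of the 3 inhibitors at or above 10 CPM, *Serpinb6a* was highest by age, at 1.43-fold, and *Serpinb6b* lowest in both comparisons, at 1.15 and 0.929 times. *Serpinb9b* had 2, 6 and 8 UMIs. Of 8 effector regulators, 4 were at least 2-fold higher by organ, against 5.31% of all genes, with *Prdm1* at 6.27-fold (4.80 to 8.30) and *Eomes* lowest at 1.28-fold. *Prdm1* and *Nfil3* reached 10 CPM only in the kidney, at 12.5 and 18.8 CPM. By age *Bhlhe40* was 4.13-fold higher and *Id2* lowest at 0.911 times. Of 5 naive and memory regulators, none was higher in either comparison. *Tcf7* was 2.69-fold lower by organ, at 207 and 76.9 CPM, and *Id3* was 1.73-fold lower by age. The highest of these were *Tcf7* by age, at 0.957 times, and, of the 4 at or above 10 CPM by organ, *Foxo1* at 0.714 times. *Bcl6*, under 10 CPM in both, was at 0.877 times by organ. The part of the B cell, myeloid and tubule genes in these organ folds was not tested.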

How the data were processed

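PD-1+CD44+CD8+ T cells of 3 groups were profiled by 10x Genomics single-cell sequencing (5′ v2 chemistry), in which UMIs mark single transcripts. Submitters' processing notes name Cell Ranger 2.1.1, R 3.6.1 and GRCm38, and the study's methods name the Cell Ranger vdj pipeline. The annotation release, cell filters and treatment of doublets are not given in the sources used here. Per library, the deposited tables give every barcode's cluster and, per gene and cluster, the mean UMI count per cell after size-factor scaling. The tables also hold the authors' log2 fold change and adjusted p of each cluster against the other cells, which were not used. The authors clustered each library on its own, and cluster 1 of one library is not cluster 1 of another.

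The values of a deposited column are whole multiples of the value of 1 UMI. Division by the smallest positive value gave whole UMIs in 100% of columns within 0.001. UMIs were summed over clusters and scaled to 1000000 UMIs (CPM) per library or cluster, and 3 UMIs correspond to 0.0864 to 0.100 CPM of a library. The authors normalized each table separately, and comparisons across libraries rest on this rescaling. Ratios used a pseudocount of 1 CPM, which understates folds of low genes. Folds and their intervals were taken without it. Intervals are 95% intervals, exact Poisson for levels, exact conditional binomial for folds and Clopper-Pearson for shares. With 1 library per group no test was run. The steps were tested on simulated data. Python 3.11.15, numpy 2.4.6, scipy 1.17.1, pandas 2.3.3 and matplotlib 3.10.9 were used. The members and gene lists were chosen with earlier results of these data known.

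Named besides the 8 genes were the highest and lowest ratio of each pathway list, the regulators with the highest and lowest r with a member and, for each member, the 3 genes nearest in pattern, leaving out receptor V, D and J segments. A gene that this rule names is not reported here. Leading genes of clusters (CPM over the other clusters, 10 CPM added) and the overlapping gene *Esm1* were added after values were seen. Alternatives covered scaling, pseudocount, clusters used and the filter on low genes. Clonotype data were not used here.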

Additional observations from a re-analysis of the deposited data

How the results depend on the processing

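All 8 genes kept the direction of both folds under each of the 11 alternatives tried, although 24 of 88 single-gene log2 ratios by age and 51 of 88 by organ moved beyond their counting interval. The median organ ratio of the 8 genes (1.23) was 1.08 with the total taken without receptor, mitochondrial and ribosomal protein genes, 0.99 with deposited means weighted by cells, 0.96 with clusters weighted equally, 1.39 without clusters where another cell type's list was raised, 1.41 without these but keeping clusters raised for erythroid genes alone, and 1.38 without the cluster highest in the 8 genes. The next to last was chosen after seeing the data. With clusters weighted equally 3 of 8 genes were at least 2-fold higher by organ, against 6. With 10 CPM added, the median age ratio was 0.63 against 0.99, and 2 of 8 genes were at least 2-fold higher by age, against 4. The share of all genes at least 2-fold higher by organ was 9.67% with a minimum of 1 CPM, against 5.31%. The median r of gene pairs was 0.72 over 33 clusters, 0.58 within 12W spleen and 0.55 within 28W kidney. The cause of these shifts was not tested. No paired analysis was possible because each library pools its listed samples, which may be sequencing lanes. With 1 library per group, differences between mice, sorts or digestions cannot be told apart from age and organ, and clusters with few UMIs limit *Gzmm*, *Fasl* and, in spleen, *Gzmb*.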
